A study of Rattus norvegicus with 36 samples.

Results

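Vesicular glutamate transporters load glutamate into synaptic vesicles, and the messenger RNA (mRNA) of 2 of them was followed here in samples of the rat nucleus accumbens. The members were the rows of Ensembl gene IDs ENSRNOG00000020650, Slc17a7 (VGLUT1), and ENSRNOG00000016147, Slc17a6 (VGLUT2), 2 of the 31546 gene IDs in the count files. The rule gives their IDs and uses no measured value, but the transporters were picked with earlier results of these data known. Both were among the 16029 genes that passed the filter on low counts. The samples came from 9 Sprague-Dawley rats aged 8 weeks, 3 in each of 3 groups that the labels call Vulnerable, Non Vulnerable and Saline. Vulnerable and Non Vulnerable rats shared a treatment of 4 cocaine injections (20 mg/kg, intraperitoneal) in a conditioned place preference procedure with sessions of 20 min, in which saline and cocaine were paired with opposite compartments 6 h apart. Saline rats were given 4 injections of physiological serum and went through the same alternation of compartments. In all 3 groups conditioning went on for 3 further days. The series sets rats that expressed the place preference against rats that did not, but no sample label says which of both phenotype names stands for which. The tissue is labelled nucleus accumbens, from both sides of the brain, while the extraction protocol also names the caudate putamen.

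As background, a neuron that releases glutamate needs a vesicular glutamate transporter, and its mRNA lies mainly in the cell body, far from the axon endings where the protein works. Slc17a7 mRNA is typical of glutamatergic neurons of the cerebral cortex, hippocampus and basolateral amygdala, and Slc17a6 mRNA of those of the thalamus, hypothalamus and brainstem. The principal neurons of the accumbens use GABA and receive glutamate from axons whose cell bodies lie elsewhere. Both transcripts were therefore used here as markers of tissue outside the accumbens, without naming a region. The comparison asks whether these transcripts were at like levels in all samples or differed between groups or single rats. No other marker gene of a region could be matched to an ID, so the region a transcript came from was not tested. In such bulk tissue, fewer cells of a type and less mRNA per cell cannot be told apart.

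Total counts lay between 41213813 and 64081679 per rat, summed over 4 technical replicates (a to d, called libraries here). For the members, no spread beyond counting error was seen between libraries of the same rat. The chi-square per degree of freedom ran from 0.0301 to 2.30 over 18 sets of 4 libraries, with a median of 0.713. The smallest Benjamini-Hochberg adjusted p of these chi-square tests was 0.982. Repeated reads of the same library would give this outcome too. Whether a to d were prepared apart was not tested, so agreement of separate preparations is not shown. Slc17a7 had 1953 to 2025 reads in the 4 libraries of Saline rat 3, 22 to 29 in those of Saline rat 2 and 6 to 10 in those of Non Vulnerable rat 3. Slc17a6 had 670 to 709 reads in the libraries of Non Vulnerable rat 3 and 7 to 12 in those of Vulnerable rat 2. Libraries of a rat were summed, and each rat counts as 1 sample (n = 3 per group). Levels are given in CPM, read counts set to a common total for every rat and scaled between rats by the trimmed mean of M-values (TMM). They are not divided by transcript length, so levels are compared between rats and not between the transporters.

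Slc17a7, the transporter typical of cortical neurons, stood at 104 CPM in Vulnerable rat 1, 14.8 in rat 2 and 37.2 in rat 3. Non Vulnerable rats 1 to 3 had 9.09, 1.89 and 0.817 CPM. Saline rats 1 to 3 had 37.1, 2.47 and 171 CPM. The 3 Non Vulnerable rats were thus all below the 3 Vulnerable rats, while the Saline rats held the highest value of all 9 and the third lowest. Group means were 52.0 ± 46.5 CPM in Vulnerable, 3.93 ± 4.50 in Non Vulnerable and 70.2 ± 89.0 in Saline rats (SD, n = 3).

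The spread of Slc17a7 inside a group was large. Its highest rat exceeded its lowest 69.3-fold among Saline rats, 7.06-fold among Vulnerable rats and 11.1-fold among Non Vulnerable rats. Counting error was small beside these folds: the exact 95% Poisson interval ran from 167 to 175 CPM in Saline rat 3, from 2.01 to 2.99 in Saline rat 2 and from 0.562 to 1.15 in Non Vulnerable rat 3. These intervals cover counting error only. In the order of the rats, neighbours with overlapping intervals were Vulnerable rat 3 and Saline rat 1, and Saline rat 2 and Non Vulnerable rat 2. The groups in order of their means were Saline, Vulnerable and Non Vulnerable, and the Saline range of 2.47 to 171 CPM took in all 3 Vulnerable values.

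Slc17a6, the transporter typical of thalamic and hypothalamic neurons, followed another order. Vulnerable rats 1 to 3 had 4.13, 0.727 and 6.05 CPM. Non Vulnerable rats 1 to 3 had 5.80, 41.8 and 68.7 CPM. Saline rats 1 to 3 had 6.07, 3.71 and 12.4 CPM. Non Vulnerable rats 2 and 3 stood above the other 7 rats, the lower of them 3.36-fold above Saline rat 3, whereas Non Vulnerable rat 1 lay below Vulnerable rat 3 and inside the range of the Saline rats. Vulnerable rat 2 was lowest, 5.11-fold below Saline rat 2. Means were 3.64 ± 2.69 CPM in Vulnerable, 38.8 ± 31.6 in Non Vulnerable and 7.40 ± 4.50 in Saline rats (SD, n = 3).

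**Figure D1:**
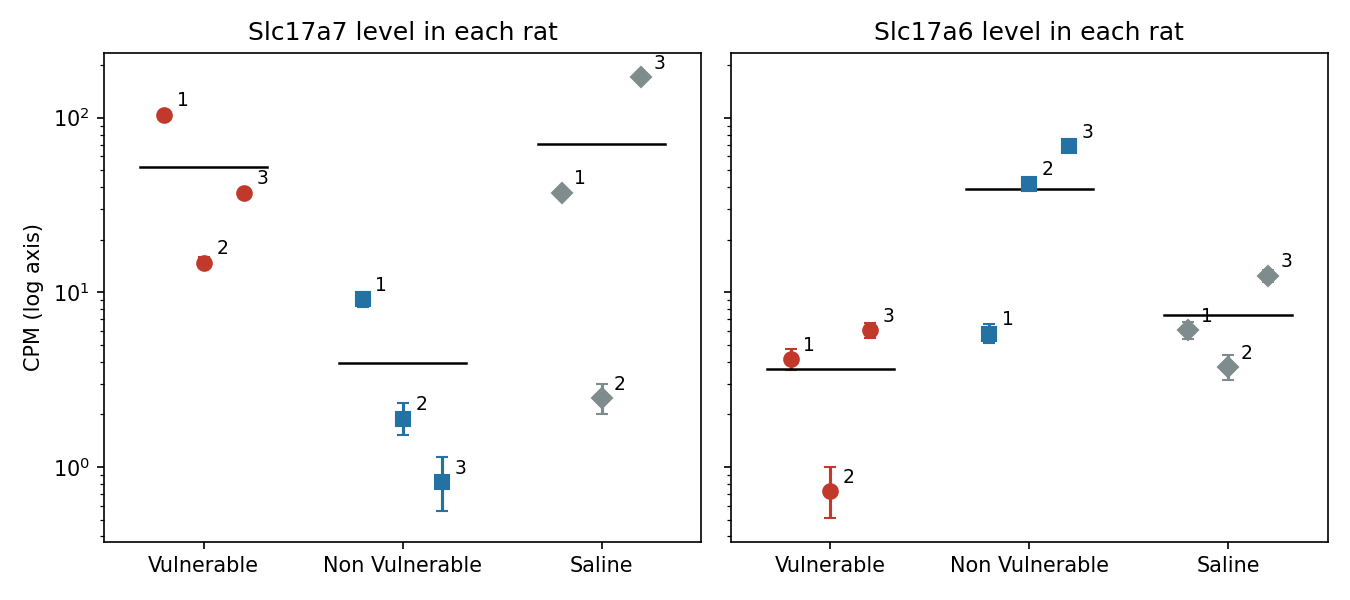
Level of Slc17a7 (left) and Slc17a6 (right) in each of 9 rats, in CPM on a log axis; the number beside a point is the rat, error bars are exact 95% Poisson intervals and horizontal lines are group means. Slc17a7 spans 0.817 to 171 CPM and Slc17a6 0.727 to 68.7 CPM, with Non Vulnerable rats 2 and 3 lowest for Slc17a7 and highest for Slc17a6.

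For Slc17a6 the exact 95% Poisson interval ran from 66.2 to 71.3 CPM in Non Vulnerable rat 3 and from 0.512 to 1.00 CPM in Vulnerable rat 2, so counting error was again far below the distance between these rats. The intermediate levels were close together. Intervals of neighbouring rats overlapped for Saline rat 1 and Vulnerable rat 3, for Vulnerable rat 3 and Non Vulnerable rat 1, and for Vulnerable rat 1 and Saline rat 2, so that rats of all 3 groups could not be ordered there. In the order of group means, Non Vulnerable, Saline and Vulnerable, each group overlapped the next in single rats.

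Between Vulnerable and Non Vulnerable rats, which were given the same cocaine schedule, 1 of the 2 transporters was called at an adjusted p under 0.05 in edgeR, where 31.5% of all genes tested were called. Slc17a6 was lower in Vulnerable rats by a log2 fold change of -3.40 with SE 0.944, or 10.5-fold (edgeR adjusted p = 0.0264), although Non Vulnerable rat 1 overlapped the Vulnerable rats. Its call ended without Vulnerable rat 1 (edgeR adjusted p = 0.0693), rat 2 (0.0676) or rat 3 (0.0510) and without Non Vulnerable rat 2 (0.0648) or rat 3 (0.0794), with log2 fold changes of -3.94 to -2.70 over all 9 fits that left out a rat. Without Non Vulnerable rat 1 the log2 fold change was -3.89 and the edgeR adjusted p 0.00590. The call also ended in limma voom (adjusted p = 0.0925) and with no filter on low counts (edgeR adjusted p = 0.0554), and DESeq2 gave 0.00406.

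Slc17a7 was not called between Vulnerable and Non Vulnerable rats, although its fitted fold was larger than that of Slc17a6: it was 3.72 on the log2 scale with SE 1.41, or 13.2-fold, with Vulnerable higher (edgeR adjusted p = 0.0726). The groups did not overlap for it, as for 46.7% of all genes tested. Its adjusted p fell under 0.05 without Saline rat 2 (edgeR 0.0393) or Saline rat 3 (0.0482), which are outside the comparison but share its estimate of the spread, and ranged from 0.0393 to 0.190 over the 9 fits that left out a rat. It was also called by DESeq2 (adjusted p = 0.0249) and with only both cocaine groups in the fit (edgeR adjusted p = 0.0387), but not in limma voom (adjusted p = 0.214). By size of fold, Slc17a7 ranked 14 and Slc17a6 ranked 20 of the 16029 genes in this comparison, where the median absolute log2 fold change was 0.31. Their standard errors of 1.41 and 0.944 stood against a median of 0.144 over all genes.

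Between Non Vulnerable and Saline rats neither transporter was called, where 14.7% of genes tested were. The fold of Slc17a7 was -4.15 on the log2 scale with SE 1.43, lower in Non Vulnerable rats (edgeR adjusted p = 0.0821), and Saline rat 2 overlapped the Non Vulnerable rats, whereas the groups were apart for 35% of all genes. DESeq2 called it (adjusted p = 0.0171) and limma voom did not (0.353). The value rested partly on Saline rat 3, without which the log2 fold change was -2.34 (edgeR adjusted p = 0.241). Without Non Vulnerable rat 1 it was -5.69 (edgeR adjusted p = 0.0592). That of Slc17a6 was 2.39 with SE 0.901, higher in Non Vulnerable rats (edgeR adjusted p = 0.104), and the groups overlapped through Non Vulnerable rat 1. Leaving out that rat gave 2.87 and an edgeR adjusted p of 0.0250, and leaving out Non Vulnerable rat 3 gave 1.68 and 0.298. Both comparisons with Non Vulnerable rats share these 3 rats, so their values are not independent.

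Between Vulnerable and Saline rats the log2 fold changes were -0.43 for Slc17a7 (SE 1.22, edgeR adjusted p = 0.968) and -1.01 for Slc17a6 (SE 0.903, edgeR adjusted p = 0.912), and the groups overlapped for both. Groups were apart for 11.9% of all genes here. No gene passed in edgeR (0 genes, 0%), while DESeq2 called 29 and limma voom 0. Before adjustment, 807 of 16029 genes had an edgeR p under 0.05, near the share that this threshold gives when no gene differs. The sign for Slc17a7 was not settled, being 1.41 without Saline rat 3 and -1.43 without Vulnerable rat 1. The SE of Slc17a7 exceeded its fold, and with such errors like levels in both groups are not shown either.

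Tested for any difference among the 3 groups, Slc17a6 was called (edgeR adjusted p = 0.0464) and Slc17a7 was not (edgeR adjusted p = 0.131), with 21.3% of all genes called. The call of Slc17a6 held without Non Vulnerable rat 1 (edgeR adjusted p = 0.0112) or Saline rat 3 (0.0442). It ended without Vulnerable rat 1 (0.0967), rat 2 (0.0765) or rat 3 (0.0795), without Non Vulnerable rat 2 (0.132) or rat 3 (0.176), and without Saline rat 1 (0.0863) or rat 2 (0.0837). With all 9 rats it also ended when edgeR used library totals alone (adjusted p = 0.0619), left out the 10 most counted genes (0.0511), used no filter on low counts (0.0982) or took the rat number as a replicate block (0.0606), and it ended in limma voom (adjusted p = 0.205). It was kept by DESeq2 (adjusted p = 0.0110) and with median-of-ratios scaling (edgeR adjusted p = 0.0481).

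**Figure D2:**
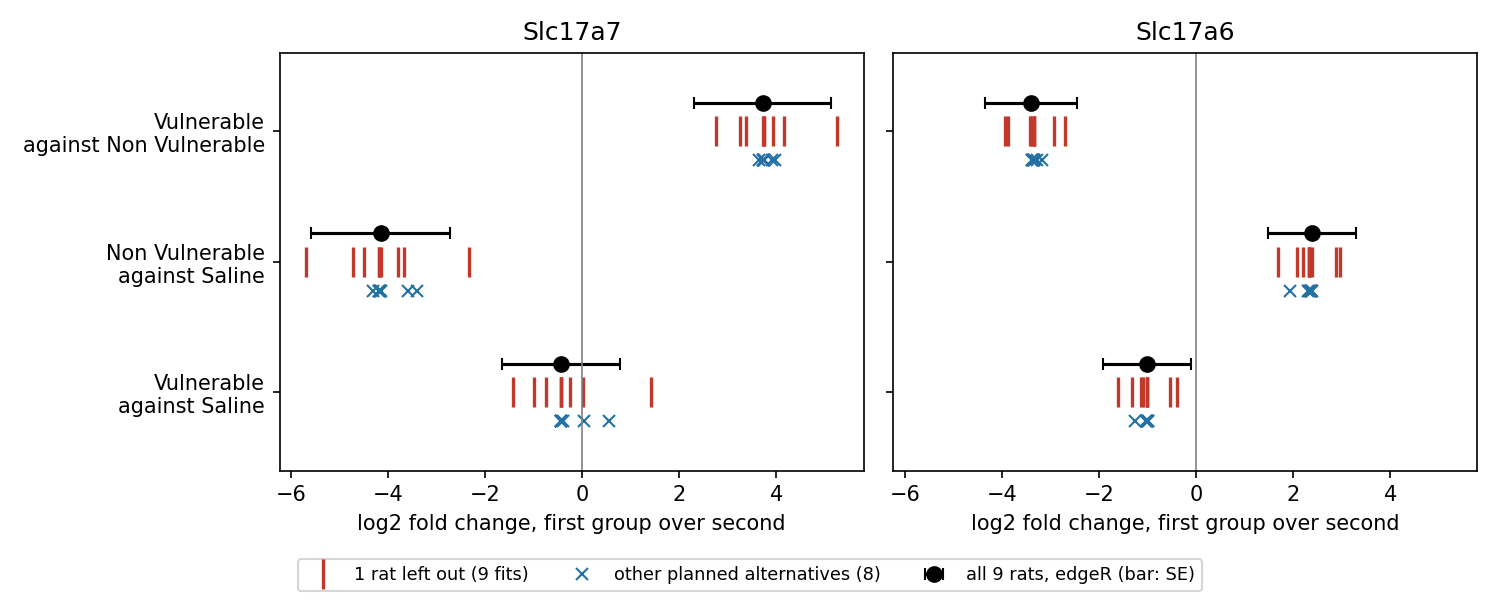
Log2 fold change of Slc17a7 (left) and Slc17a6 (right) in 3 comparisons, first group over second; black points with bars are the edgeR estimate and its SE with all 9 rats, red ticks the 9 fits with 1 rat left out and blue crosses 8 other settings of scaling, filter and test. All values for Vulnerable against Non Vulnerable rats lie above 0 for Slc17a7 (2.76 to 5.25 with a rat left out) and below 0 for Slc17a6, while those of Slc17a7 for Vulnerable against Saline rats fall on either side of 0.

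The ratio of Slc17a7 to Slc17a6 reads in a rat does not depend on the scaling between rats. It was 25.2, 20.3 and 6.15 in Vulnerable rats 1 to 3. In Non Vulnerable rats 1 to 3 it was 1.57, 0.0451 and 0.0119. In Saline rats 1 to 3 it was 6.12, 0.665 and 13.8. Every Vulnerable rat had a higher ratio than every Non Vulnerable rat, and the Saline rats reached from among the Vulnerable to among the Non Vulnerable values. Slc17a7 alone kept both cocaine groups apart too, as did 46.7% of all genes tested. The ratio is made from the values given above and is not a separate result. On the log2 scale the means of the ratio were 3.87 ± 1.10 in Vulnerable, -3.41 ± 3.64 in Non Vulnerable and 1.94 ± 2.26 in Saline rats (SD, n = 3). The difference of 7.28 between Vulnerable and Non Vulnerable rats had an exact two-sided permutation p of 0.1, the smallest that 3 rats against 3 allow (0.2 after Benjamini-Hochberg adjustment over 3 pairs of groups). Non Vulnerable differed from Saline rats by -5.34 (exact permutation p = 0.2, adjusted 0.2) and Vulnerable from Saline rats by 1.94 (exact permutation p = 0.2, adjusted 0.2).

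Rat by rat, no common order of both transporters was seen, and 9 rats show neither a relation nor its absence. Over 9 rats, Pearson's r of log2 CPM was -0.44 (exact permutation p = 0.236) and Spearman's rho -0.25 (exact permutation p = 0.521), the only relation of this kind computed, so that adjustment leaves these values as they are. Without the rats farthest from the median of Slc17a7, Non Vulnerable rat 3 and Saline rat 3, r was -0.37 (exact permutation p = 0.420, n = 7). Without Non Vulnerable rats 2 and 3, r was 0.42 and rho 0.61 (n = 7). These rats were left out after they were seen to be lowest in Slc17a7 and highest in Slc17a6. That choice by itself moves r and rho upward, and nothing is read from these values. Groups of 3 rats were too few for a value of their own. Vulnerable rat 3 and Saline rat 1 had close values of both transporters, and Saline rat 3 had the highest Slc17a7 of all rats and the third highest Slc17a6.

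**Figure D3:**
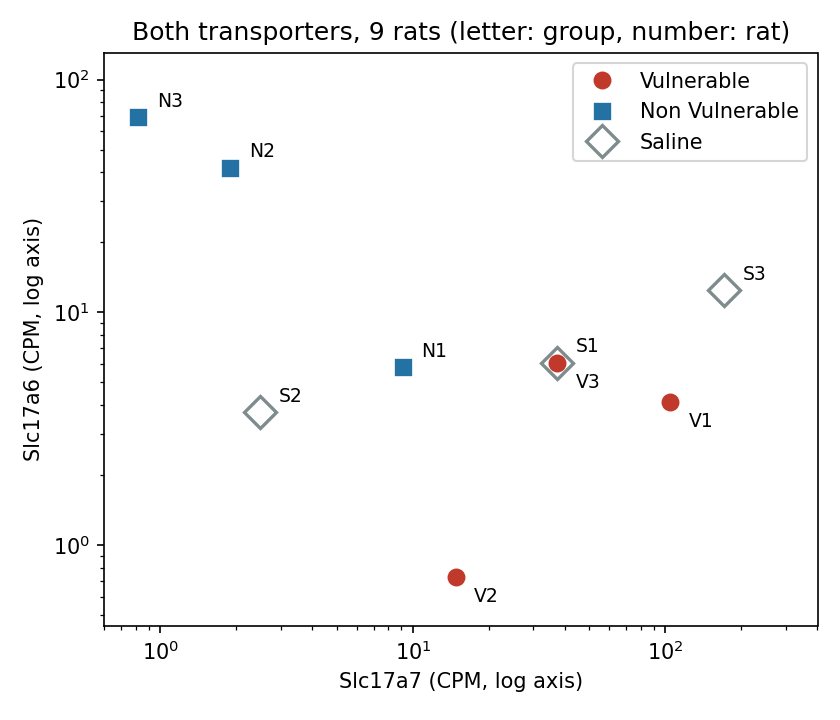
Slc17a6 against Slc17a7 in each of 9 rats, in CPM on log axes; N, V and S mark Non Vulnerable, Vulnerable and Saline rats, followed by the rat number. Non Vulnerable rats 2 and 3 lie at the upper left, with 41.8 and 68.7 CPM of Slc17a6 and 1.89 and 0.817 CPM of Slc17a7, and the other 7 rats hold at most 12.4 CPM of Slc17a6.

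Few genes varied as much between the rats as these transporters. Among 13727 genes with a mean of at least 1 CPM, the highest of 9 rats exceeded the lowest by a median of 0.65 on the log2 scale (log2 CPM with a prior count of 2). For Slc17a7 this range was 7.64, reached or exceeded by 7 genes including itself, and for Slc17a6 it was 6.49, reached or exceeded by 19 genes. In CPM the highest rat was 209-fold above the lowest for Slc17a7 and 94.6-fold for Slc17a6.

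**Figure D4:**
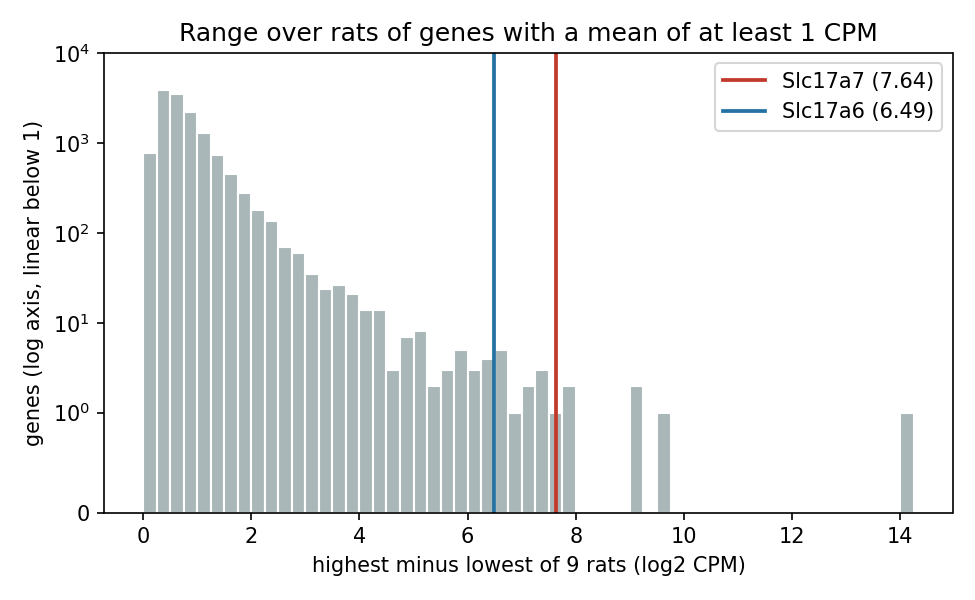
Number of genes by their range over 9 rats (highest minus lowest log2 CPM, bins of 0.25), for 13727 genes with a mean of at least 1 CPM; the vertical axis is logarithmic above 1. Slc17a7 at 7.64 and Slc17a6 at 6.49 lie in the far right tail, against a median of 0.65.

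This spread lay partly between the groups and partly inside them, where the treatment and the phenotype label were the same. Mean log2 CPM of Vulnerable, Non Vulnerable and Saline rats was 5.27, 1.30 and 4.65 for Slc17a7. For Slc17a6 it was 1.43, 4.68 and 2.72. The pooled SD of log2 CPM within groups was 2.20 for Slc17a7 and 1.51 for Slc17a6. The median over the 13727 genes was 0.154, and 19 and 53 genes reached the values of the transporters. Among the 3 Saline rats, which had no cocaine, the range of Slc17a7 was 6.09 and only 4 genes reached it, itself included. For Slc17a6 the range among Saline rats was 1.73, reached by 157 genes. Inside the Non Vulnerable group the ranges were 3.41 for Slc17a7 and 3.56 for Slc17a6, reached by 51 and 46 genes, and inside the Vulnerable group 2.82 and 2.99, reached by 79 and 68 genes.

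Whole libraries differed between the rats as well. A principal component analysis of log2 CPM was run without both transporters, and its first component held 40.1% of the variance. On it, Non Vulnerable rats 2 and 3, the rats highest in Slc17a6, had scores of -46.8 and -58.3. Non Vulnerable rat 1 scored -7.54, Saline rats 7.22, 10.2 and 9.03, and Vulnerable rats 30.3, 34.2 and 21.6. The Saline scores lay close together, although Slc17a7 ran from 2.47 to 171 CPM in these rats. The share of the most counted genes stood apart in another rat, which was extreme in neither transporter: in Non Vulnerable rat 1 the 10 most counted genes held 18.2% of the counts, against 10.5% to 13.3% in the other rats. These 10 genes were taken in each rat by itself. Another fit left out the 10 genes of highest share summed over all 9 rats, which need not be those of Non Vulnerable rat 1. Its log2 fold changes of Vulnerable against Non Vulnerable rats were 3.75 for Slc17a7 and -3.34 for Slc17a6. The part of the first component and of the share of the most counted genes in the transporters' levels was not tested. A difference in the tissue taken and a difference between the phenotype groups cannot be told apart with 3 rats per group.

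More genes shared the pattern of Slc17a6 over the rats than that of Slc17a7, and neither number was rare among all genes. Pearson's r with Slc17a6 over 9 rats was at least 0.9 for 403 and at most -0.9 for 271 of 13726 other genes with a mean of at least 1 CPM, together 4.91%. With Slc17a7 it was so for 12 and 6 genes, together 0.131%. Counted the same way for every gene, the median was 126 genes, with quartiles of 27 and 545. As many as Slc17a6 or more were found for 20.8% of genes, and as many as Slc17a7 or more for 80.9%. Of the 674 genes close to Slc17a6, 441 (65.4%) were called between Vulnerable and Non Vulnerable rats, which was 9.25% of the 4765 genes called there at this level. Over all 13726 genes at this level 34.7% were called. Of the 18 close to Slc17a7, 6 (33.3%) were called, a share near that over all genes, and they made up 0.126% of 4766. These r values and the calls rest on the same 9 rats and the same libraries, and are given as a description. Slc17a6 was itself called between Vulnerable and Non Vulnerable rats. Picking genes for their closeness to it by itself raises the share called, and nothing is read from that larger share.

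The gene most like Slc17a7 was ENSRNOG00000026055 (r = 0.98 over 9 rats), whose rank order of the rats was the same as that of Slc17a7 (rho = 1). It stood at 8.51, 0.747 and 2.17 CPM in Vulnerable rats 1 to 3, at 0.376, 0.205 and 0.124 in Non Vulnerable rats and at 2.10, 0.216 and 9.37 in Saline rats, so it was high and low in the same rats. It was picked as the highest r of 13726 genes. Its lowest levels, 0.124 to 0.216 CPM, rest on few reads: 0.817 CPM of Slc17a7 in Non Vulnerable rat 3 came from 33. The order of its lowest rats is therefore not settled. ENSRNOG00000000781 came next (r = 0.95) over a much smaller range, from 1.52 CPM in Non Vulnerable rat 2 to 3.77 CPM in Saline rat 3. The lowest r belonged to ENSRNOG00000018532 (-0.93) and ENSRNOG00000022607 (-0.92). The former ran from 13.1 CPM in Saline rat 3 to 18.4 CPM in Non Vulnerable rat 2, a narrow range beside that of the transporter.

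Most like Slc17a6 were ENSRNOG00000006120 and ENSRNOG00000017438 (r = 0.99 for both). ENSRNOG00000006120 stood at 5.27 and 8.93 CPM in Non Vulnerable rats 2 and 3 and at 0.255 CPM in Vulnerable rat 2, its lowest. ENSRNOG00000017438 stood at 48.2 and 52.0 CPM in the same Non Vulnerable rats and at 11.9 CPM in Vulnerable rat 2. Most unlike it were ENSRNOG00000011111 and ENSRNOG00000005908 (r = -0.98 for both). The level of ENSRNOG00000011111 was 111 and 105 CPM in Non Vulnerable rats 2 and 3, its lowest values, and 140 CPM in Vulnerable rat 2, its highest. The files do not pair these IDs with names.

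**Figure D5:**
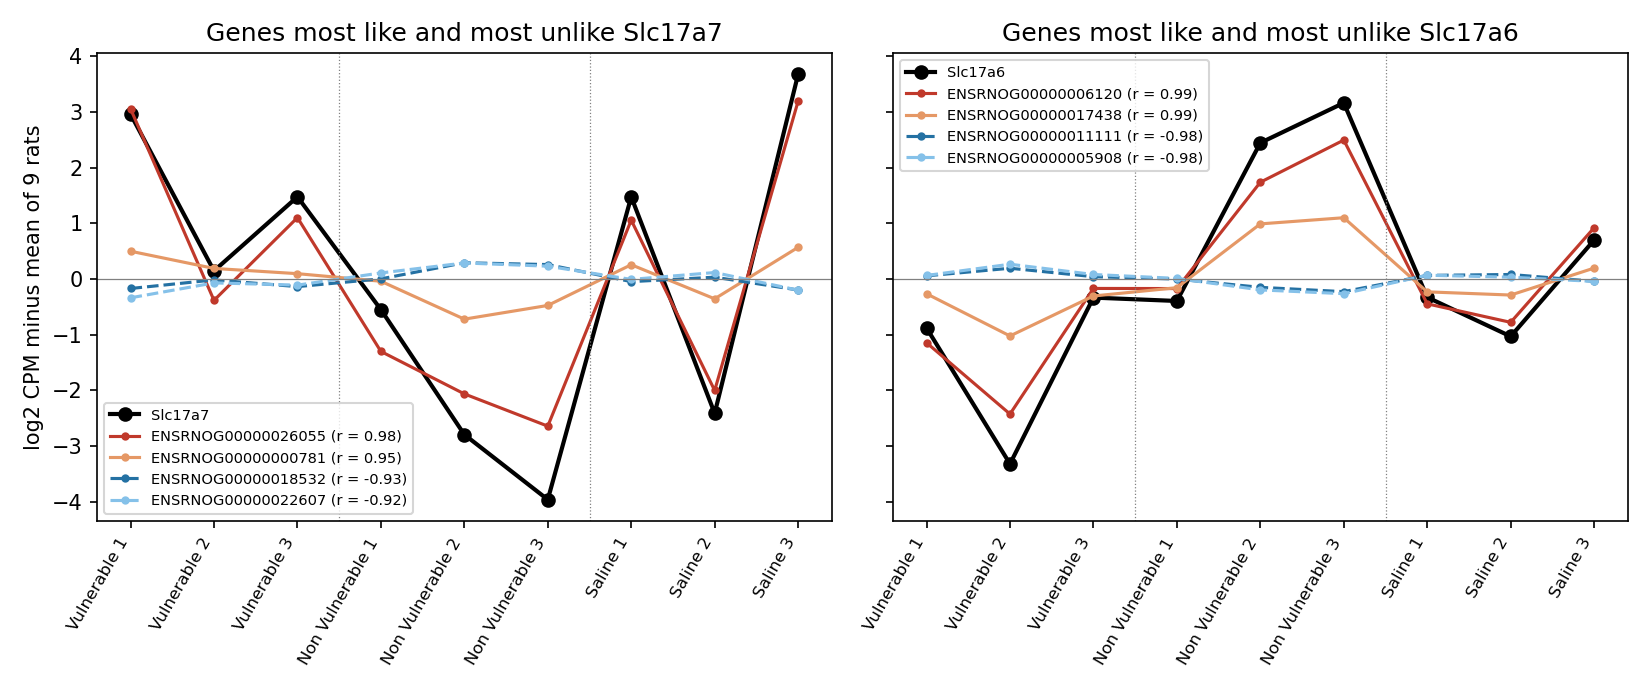
Log2 CPM minus the mean of 9 rats for Slc17a7 (left) and Slc17a6 (right), in black, with the 2 genes of highest r (red and orange, solid) and the 2 of lowest r (blue, dashed); dotted lines separate the groups. ENSRNOG00000026055 follows Slc17a7 through all 9 rats, and the genes like Slc17a6 peak in Non Vulnerable rats 2 and 3 and are lowest in Vulnerable rat 2.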

How the data were processed

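The values deposited by the authors are raw counts of reads, whole numbers for each Ensembl gene, in 36 tables with 1 technical replicate each. Messenger RNA was selected with oligo(dT) and libraries kept strand, per the labels' protocols. Tools named in the submitters' processing notes are bcl2fastq 2.17.1.14, STAR and HTSeq 0.5.3. Genome build, annotation and strand setting: not given in the sources used here. No coordinates are therefore printed, and reads shared with overlapping genes could be assigned in more than one way.

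Counts were summed per rat and tested with edgeR 4.0.16 in R 4.3.3 (filterByExpr, TMM, robust quasi-likelihood fit over all 9 rats, 6 residual degrees of freedom), with Benjamini-Hochberg adjustment over 16029 genes. Standard errors came from the F statistic. The rats are taken as separate animals from their numbers in the labels. Names of both members were set with the choice of members and not checked in a table, since the RefSeq table of GRCr8 paired 0 IDs with a symbol. For that reason 12 lists of marker genes (95 entries) were void. The members and lists were chosen with earlier results of these data known. Named beside the members, by rule, are the 2 genes of highest and of lowest r with each. Alternatives were DESeq2 1.42.0, limma 3.58.1 (voom), other scalings, no filter, only the compared groups, a replicate block and leaving out each rat.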

Additional observations from a re-analysis of the deposited data

Results flagged for a closer look

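The departure of Slc17a6 from the shared Saline rats differed between Vulnerable and Non Vulnerable rats by -3.40 on the log2 scale (edgeR adjusted p = 0.0264), a test of the difference itself. Slc17a6 was lower than the Saline mean in Vulnerable rats (log2 fold change -1.01) and higher in Non Vulnerable rats (2.39), and neither departure was called. The Saline level cancels in the difference, so this repeats the contrast between both cocaine groups and is not a separate result. Non Vulnerable rat 1, at 5.80 CPM, did not share the high level of the other two.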

How the results depend on the processing

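Both transporters kept their signs against Non Vulnerable rats in every alternative run. For Slc17a6, Vulnerable against Non Vulnerable, the call ended with no filter on low counts (log2 -3.39, edgeR adjusted p = 0.0554) and in limma voom (-3.18, adjusted p = 0.0925), and an exact permutation test of mean log2 CPM, added after the data were seen, gave -3.25 (exact p = 0.2; it cannot go below 0.1). Slc17a7 was called between Vulnerable and Non Vulnerable rats with only those groups in the fit (3.75, edgeR adjusted p = 0.0387) and by DESeq2 (3.74, adjusted p = 0.0249), in a range of 0.0249 to 0.214. DESeq2 also called it between Non Vulnerable and Saline rats (-4.17, adjusted p = 0.0171, range 0.0171 to 0.353). For Vulnerable against Saline rats its sign turned in limma voom (0.54), with the mean of log2 CPM (0.61) and with the rat number as a replicate block (0.039), and without Vulnerable rat 2 (0.0062) or Saline rat 3 (1.41). The call of Slc17a6 among the 3 groups ended with library totals alone (edgeR adjusted p = 0.0619), without the 10 most counted genes (0.0511), with no filter (0.0982), under the replicate block (0.0606) and in limma voom (0.205); DESeq2 gave 0.0110. Over rats r was 0.42 without Non Vulnerable rats 2 and 3, chosen on their values. The causes were not tested.

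With a rat left out, log2 fold changes of Slc17a7 ran from 2.76 to 5.25 (Vulnerable against Non Vulnerable), -5.69 to -2.34 (Non Vulnerable against Saline) and -1.43 to 1.41 (Vulnerable against Saline). Those of Slc17a6 ran from -3.94 to -2.70, 1.68 to 2.96 and -1.62 to -0.39. The adjusted p for any difference (edgeR) ran from 0.0647 to 0.337 for Slc17a7 and 0.0112 to 0.176 for Slc17a6. The log2 ratio difference ran from 5.78 to 9.31, -7.37 to -3.85 and 0.67 to 2.86.

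Same-numbered rats showed no common deviation from their group means (r from -0.137 to 0.190, over 0.1 in 2 of 9 pairs). The highest r was with the rat's own number in 6 of 18 cases. With 3 rats per group this cannot show that the numbers are without meaning. Whether same-numbered rats were handled together was not tested. The block gave 5160 called genes between Vulnerable and Non Vulnerable rats against 5050. Library totals alone moved the median of all genes in that comparison by 0.12 on the log2 scale and the split of calls from 2419 higher and 2631 lower to 3282 and 896; between Non Vulnerable and Saline rats the share of higher calls went from 46.4% to 5.93%. Between Non Vulnerable and Saline rats, 2351 genes were called in edgeR, 1164 with only those groups and 3706 by DESeq2. For any difference DESeq2 called 5225, against 3416. With a rat left out the 5050, 2351 and 3416 genes became 2798 to 5841, 251 to 3615 and 1070 to 4228. Slc17a7 in Non Vulnerable rat 3 rests on 33 reads and Slc17a6 in Vulnerable rat 2 on 37.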
